A study of Mus musculus with 10 samples.

Results

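Axin2, Notum, Cdx1, Tcf7, Lef1, Sp5, Nkd1 and Wnt8a, genes known as transcriptional targets or feedback regulators of Wnt and beta-catenin signalling, were followed through 10 RNA-seq libraries of mouse pluripotent cells. The 8 genes were chosen by name, as the rows of the expression tables whose gene symbol is one of these, and all 8 were found among 22867 symbols. Values are FPKM (fragments per kilobase of transcript and library size), a level per transcript length, so levels of different genes can be set side by side.

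The libraries came from embryonic stem cells (ESCs) and from epiblast-like cells (EpiLCs), a culture state that models the epiblast shortly after implantation. All cells were of 129SV origin. ESCs were grown in serum-free N2B27 medium containing LIF, CHIR99021 at 3.3 µM, which inhibits the kinase GSK3, and PD0325901 at 0.8 µM, which inhibits the kinase MEK. EpiLCs were made over 48 h with bFGF and knockout serum replacement on fibronectin, in a medium for which no GSK3 inhibitor is named, so the change of state and the loss of the inhibitor cannot be told apart. Lines with intact Otx2 were R1, with 2 numbered ESC replicates, 1 EpiLC library without activin A and 1 with activin A at 20 ng/ml, and E14, with 1 ESC and 1 EpiLC library. An Otx2-/- line had 1 ESC and 1 EpiLC library, and an Otx2-/- line carrying a tetON Otx2 transgene had 1 ESC library without and 1 with doxycycline (dox). The use of activin A in EpiLCs of E14 and Otx2-/- is not given in the sources used here, nor are the dose and time of dox, the deleted part of Otx2 or the number of clones behind each line. Where no separate cultures are named, p-values measure only the spread between these libraries.

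In the absence of a Wnt ligand, a cytoplasmic complex of Axin, Apc and the kinases GSK3 and CK1 marks beta-catenin for destruction. A ligand bound to Frizzled and Lrp receptors, or a GSK3 inhibitor, stops this, and beta-catenin then acts in the nucleus with the DNA-binding proteins Tcf7, Lef1, Tcf7l1 and Tcf7l2. In mouse ESCs the best known outcome is relief of repression by Tcf7l1, which keeps the naive network active, and genes such as Axin2, Notum and Nkd1 are induced as negative feedback.

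The states were as labelled by their markers. Klf4, a naive factor, lay between 22.8 and 101 FPKM in ESC medium and between 0.840 and 1.09 in EpiLC, and Fgf5, a gene of the primed epiblast, lay between 0.373 and 3.63 against 5.18 to 35.8. Otx2 itself was at 3.96 to 9.09 FPKM in R1 and E14 ESC and 39.9 to 151 in their EpiLCs, and at 7.85 and 15.8 in the Otx2-/- ESC and EpiLC libraries. It was at 45.8 FPKM in the tetON library without dox and at 1059 with dox. Depth, estimated from the smallest values, ran from 6.5M to 20.6M fragments, which puts 1 FPKM of a 2 kb transcript at 13 to 41 fragments. Among the 6 libraries in ESC medium, R1 ESC replicate 1 and the library with dox stood apart, and results that rest on them are given with that in view. In bulk RNA, fewer cells of a type and less RNA per cell cannot be told apart.

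The 8 genes did not move as a block between ESC and EpiLC. Notum and Cdx1 fell to traces, Tcf7 and Wnt8a rose, and Axin2, Sp5 and Lef1 did not pass the test over R1 and E14. The test was limma on log2(FPKM + 1) over 3 ESC and 3 EpiLC libraries with the line as a covariate, on genes averaging at least 1 FPKM, with Benjamini-Hochberg adjustment over all 12244 genes tested and a threshold of 0.05. Activin A was not a term, so the R1 EpiLC libraries without and with it were treated as replicates of the state. Nkd1 was under that mean and was not tested. Of the 7 tested, 2 rose and 2 fell, where 20.3% of all genes tested were called, 9.73% as higher and 10.6% as lower. Notum, Cdx1 and Sp5 averaged 0.464, 0.164 and 0.143 FPKM in the EpiLC libraries tested, and Wnt8a 0.506 in the ESC libraries. These genes thus passed the filter only through the state where they are high, and the count is given as a description. Without R1 ESC replicate 1, 6 genes passed, Axin2 and Lef1 in addition, where 4118 of 12283 genes did. The 3 ESC and 3 EpiLC values of all 8 genes did not overlap, as was so for 45.2% of the genes tested. Over all 6 libraries in ESC medium and all 4 EpiLC libraries, 7 of the 8 genes still did not overlap, the exception being Nkd1. The same held for 26% of the genes averaging at least 1 FPKM over the 10 libraries, a set without Nkd1.

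**Figure D1:**
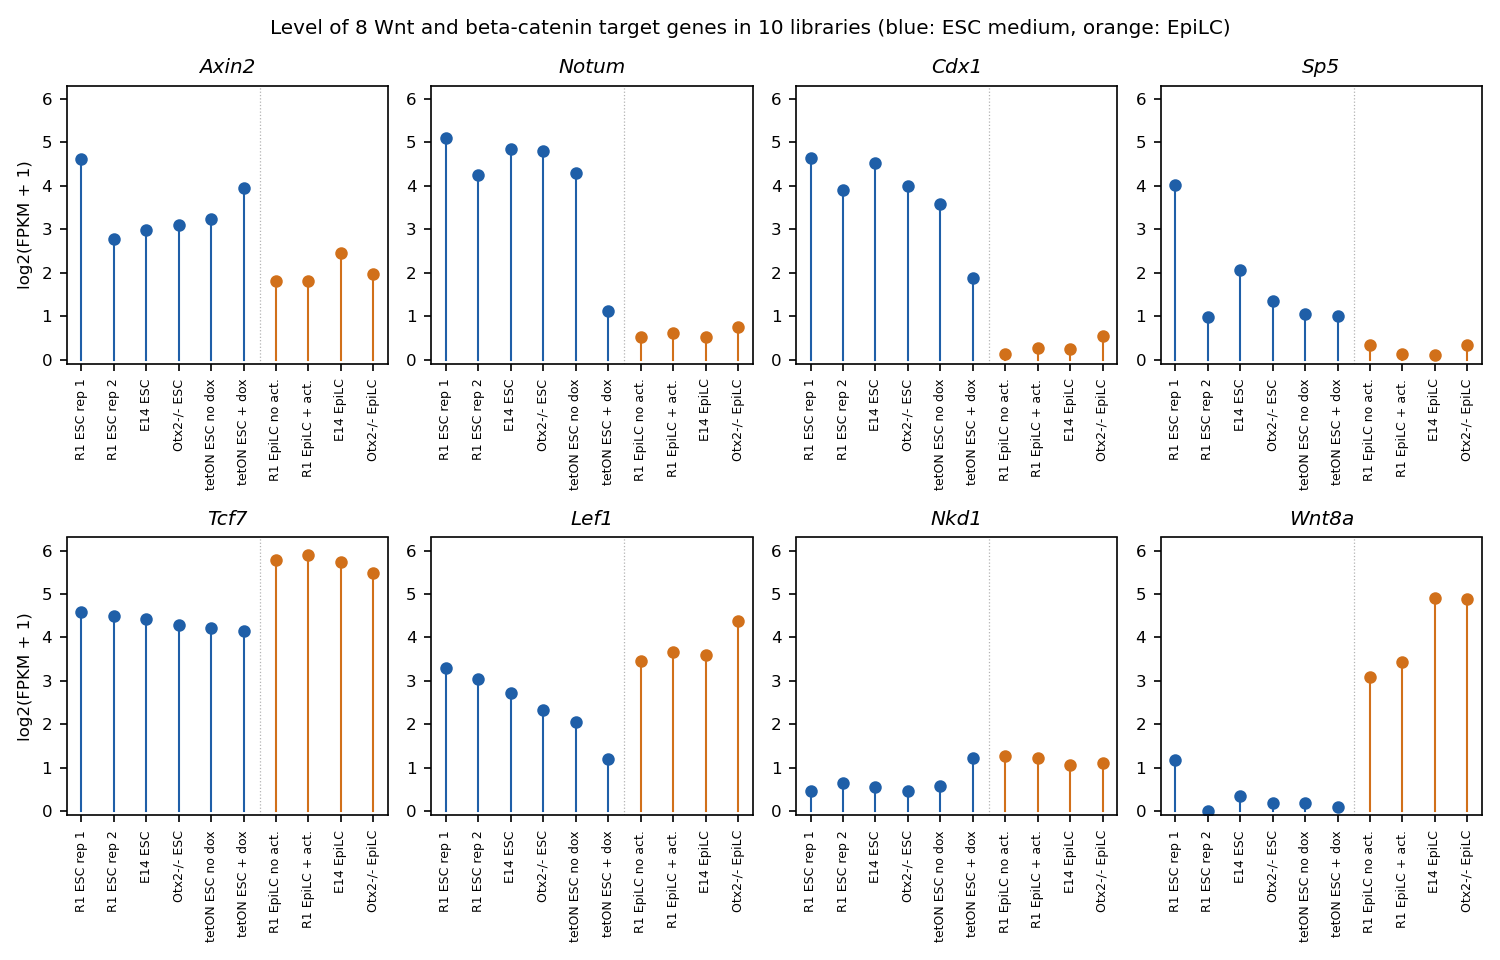
Level of each of the 8 genes in every library, as log2(FPKM + 1) on the vertical axis, with the 6 libraries in ESC medium in blue and the 4 EpiLC libraries in orange; each point is 1 library. Notum, Cdx1, Sp5 and Axin2 are lower in all 4 EpiLC libraries, Tcf7, Lef1 and Wnt8a are higher, and only for Nkd1 does an ESC-medium library, the one with dox, reach into the EpiLC range.

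Notum encodes a secreted enzyme that removes the lipid from Wnt proteins and so inactivates them. In ESC medium Notum (chr11:120515103-120522151, mm9) was at 33.6 and 18.1 FPKM in the R1 replicates, 28.0 in E14, 26.8 in Otx2-/- and 18.6 in the tetON library without dox, and at 1.18 in the one with dox. In EpiLC it was at 0.428 and 0.539 FPKM in R1 without and with activin A, 0.425 in E14 and 0.682 in Otx2-/-. All EpiLC libraries were thus under 1 FPKM, and the library with dox was the only one in ESC medium near them. Over R1 and E14, Notum fell from 26.6 ± 7.82 to 0.464 ± 0.0650 FPKM (SD, n = 3 and 3), which is -4.19 on the log2 scale (SE 0.25, limma adjusted p = 0.00161).

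Axin2 encodes a scaffold of the destruction complex and is a widely used readout of beta-catenin activity. It lies at chr11:108781663-108812095 (mm9). In ESC medium Axin2 was at 23.5 FPKM in R1 replicate 1 and 5.89 in replicate 2, 6.96 in E14, 7.56 in Otx2-/-, and 8.46 and 14.6 in tetON cells without and with dox. In EpiLC it was at 2.53 and 2.51 FPKM in R1, 4.47 in E14 and 2.94 in Otx2-/-. Every EpiLC value was below every ESC-medium value, but the R1 ESC replicates lay further apart than replicate 2 lay from any EpiLC library on the linear scale. The difference over R1 and E14 was -1.44 on the log2 scale (SE 0.54) and did not pass (limma adjusted p = 0.12). Without R1 ESC replicate 1 it was -0.79 (SE 0.15) and passed (limma adjusted p = 0.02).

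Nkd1 encodes a Dishevelled-binding antagonist that acts inside the receiving cell. It lies at chr8:91045243-91118786 (mm9). Nkd1 was at 0.380 and 0.576 FPKM in the R1 ESC replicates, 0.464 in E14 ESC, 0.382 in Otx2-/- ESC and 0.504 in tetON cells without dox, and at 1.34 with dox. In EpiLC it was at 1.42 and 1.32 FPKM in R1, 1.10 in E14 and 1.17 in Otx2-/-. The direction was opposite to that of Notum and Axin2, at levels close to the limit of these depths, and the value with dox lay inside the EpiLC range. In a fit with no filter on low values the difference was 0.63 on the log2 scale (SE 0.11, limma adjusted p = 0.0222).

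Tcf7 and Lef1 encode DNA-binding partners of beta-catenin, and both are also targets of the pathway. Tcf7 (chr11:52066106-52095752, mm9) was the most even of the 8 genes over the 6 libraries in ESC medium. It was at 23.0 and 21.5 FPKM in the R1 ESC replicates, 20.3 in E14, 18.6 in Otx2-/-, and 17.7 and 16.7 in tetON cells without and with dox. In EpiLC Tcf7 was at 54.2 and 58.9 FPKM in R1, 52.2 in E14 and 43.7 in Otx2-/-. The states were far apart, and within each state the Otx2-/- background had lower values than R1 and E14. Tcf7 rose from 21.6 ± 1.33 to 55.1 ± 3.42 FPKM over R1 and E14 (SD, n = 3 and 3), which is 1.31 on the log2 scale (SE 0.12, limma adjusted p = 0.00429).

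Lef1 (chr3:130813389-130926249, mm9) was lower than Tcf7 in all 10 libraries and more variable. In ESC medium it was at 8.78 and 7.29 FPKM in R1, 5.56 in E14, 4.06 in Otx2-/-, 3.16 in tetON cells without dox and 1.29 with dox. In EpiLC Lef1 was at 9.97 and 11.6 FPKM in R1, 11.0 in E14 and 19.7 in Otx2-/-. The states did not overlap, with the Otx2-/- line among the lower ESC values and at the highest EpiLC value. Over R1 and E14 the difference of 0.55 on the log2 scale (SE 0.17) did not pass (limma adjusted p = 0.0813). It was 0.66 and passed without R1 ESC replicate 1 (limma adjusted p = 0.0274), and 0.63 with median-ratio scaling of the libraries (limma adjusted p = 0.0428).

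Cdx1 and Sp5 encode transcription factors induced by Wnt signals in the posterior embryo. Cdx1 (chr18:61178516-61195853, mm9) was at 24.0 and 13.9 FPKM in the R1 ESC replicates, 22.2 in E14, 15.1 in Otx2-/-, 11.1 in tetON cells without dox and 2.66 with dox. In EpiLC it was at 0.102 and 0.211 FPKM in R1, 0.178 in E14 and 0.451 in Otx2-/-. As with Notum, the library with dox was the lowest in ESC medium, although for Cdx1 it stayed above all EpiLC libraries by over 2 FPKM. Cdx1 fell from 20.0 ± 5.35 to 0.164 ± 0.0562 FPKM (SD, n = 3 and 3), which is -4.14 on the log2 scale (SE 0.23, limma adjusted p = 0.00156).

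Sp5 (chr2:70312980-70315783, mm9) was at 15.1 FPKM in R1 ESC replicate 1 and 0.976 in replicate 2, 3.15 in E14 ESC, 1.53 in Otx2-/-, and 1.07 and 1.00 in tetON cells without and with dox. In EpiLC it was at 0.259 and 0.0880 FPKM in R1, 0.0826 in E14 and 0.273 in Otx2-/-. One ESC library thus carried most of the ESC mean of 6.42 ± 7.62 FPKM (SD, n = 3), while every EpiLC library was below every ESC-medium library. The difference, -2.16 on the log2 scale (SE 0.77), did not pass (limma adjusted p = 0.107). It was -2.99 and passed without R1 ESC replicate 2 (limma adjusted p = 0.0324), and -4.03 and passed with a pseudocount of 0.1 (limma adjusted p = 0.0471). Without replicate 1, Sp5 was under the filter and was not tested.

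Start-site sequences were available for 5 of the 8 genes, Axin2, Tcf7, Lef1, Sp5 and Nkd1, in 9 windows of 250 bases before an annotated start (RefSeq, GRCm38.p6). They were searched on both strands for CTTTGAT and CTTTGAA, the core recognised by Tcf and Lef proteins, and for TAATCC, the core recognised by Otx proteins; the first and the second differ in their last letter and were counted together. Sp5 and Axin2, the pair with the widest gap between the R1 ESC replicates, are shown, 5′ to 3′ on the plus strand, with the matching letters in capitals. The Sp5 window spans chr2:70474673-70474922 and the Axin2 window chr11:108920099-108920348 on GRCm38.p6, and neither overlaps an annotated gene.
Sp5: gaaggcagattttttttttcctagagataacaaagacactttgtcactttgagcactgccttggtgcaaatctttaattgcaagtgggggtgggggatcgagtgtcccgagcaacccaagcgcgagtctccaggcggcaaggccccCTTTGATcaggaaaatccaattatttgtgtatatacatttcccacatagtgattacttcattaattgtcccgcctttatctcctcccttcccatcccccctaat
Axin2: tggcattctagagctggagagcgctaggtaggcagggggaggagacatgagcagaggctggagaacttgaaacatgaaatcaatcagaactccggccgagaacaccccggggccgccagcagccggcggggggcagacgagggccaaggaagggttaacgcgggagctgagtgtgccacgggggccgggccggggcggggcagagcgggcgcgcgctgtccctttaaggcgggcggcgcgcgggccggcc
The Sp5 window held 1 match to CTTTGAT, on the plus strand, 104 to 98 bases before the start. None of the other 8 windows, that of Axin2 included, held CTTTGAT or CTTTGAA, and none of the 9 held TAATCC. The Tcf7, Lef1 and Nkd1 windows all overlap an annotated gene, some of them the gene itself. Some Lef1 windows also overlap each other, so the 9 are not separate promoters. Over 32851 such windows of all genes, 7.48% held a Tcf core and 6.25% held TAATCC, so most windows lack these letters.

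Wnt8a is the only ligand among the 8 genes, and encodes a Wnt protein of the early epiblast and primitive streak. Wnt8a (chr18:34701982-34707715, mm9) was at 1.25 FPKM in R1 ESC replicate 1 and listed at 0 in replicate 2, at 0.264 in E14 ESC, 0.131 in Otx2-/-, and 0.141 and 0.0714 in tetON cells without and with dox. In EpiLC it was at 7.57 and 9.80 FPKM in R1, 29.1 in E14 and 28.6 in Otx2-/-. All EpiLC values were above all ESC-medium values, and among EpiLCs both R1 libraries were low and E14 and Otx2-/- were high. The difference, 3.31 on the log2 scale (SE 0.50), passed (limma adjusted p = 0.0128), but missed the threshold without the R1 EpiLC library with activin A (3.40, limma adjusted p = 0.0539) and without E14 EpiLC (2.68, limma adjusted p = 0.0524). Relative to the other genes, Wnt8a moved from the lowest or second lowest of the 8 in every ESC-medium library to the second or the third place in every EpiLC library.

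Some markers of other cell types differed between the states as well. The summed level of 6 fibroblast markers was 1.03 to 2.88 FPKM in ESC medium and 3.38 to 8.19 in EpiLC, with 1 to 3 of the 6 at 1 FPKM or more. In EpiLC Dcn was at 0.785 to 3.51 FPKM, Thy1 at 1.90 to 2.80, Col1a2 at 0.329 to 1.62 and Col1a1 at 0.226 to 0.569, Col3a1 stayed under 0.04 and Lum was listed at 0 in 3 of 4 libraries. The summed level of 6 neural markers was 16.6 to 57.6 FPKM in ESC medium, mostly Tubb3 except with dox, and 5.52 to 22.6 in EpiLC, and Olig2 was at or near 0 throughout. Of 8 primitive streak markers, 1 or 2 reached 1 FPKM in each EpiLC library. Eomes did so in each, at 3.47 to 7.61 FPKM, and Mixl1 in E14 EpiLC, at 1.46. T, the defining one, was at 0.341 to 0.548. The summed level of the 8 was 5.16 to 9.87 FPKM in EpiLC and 5.19 to 15.0 in ESC medium. The part of such cells in the levels of the 8 genes was not tested.

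**Figure D2:**
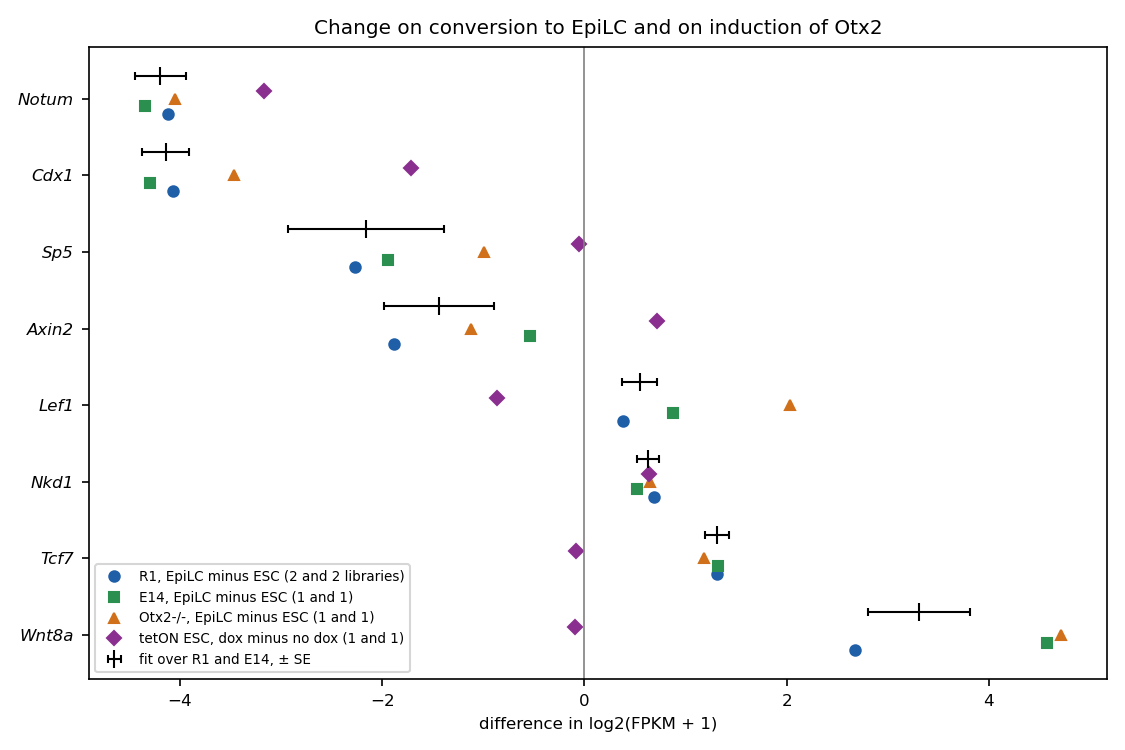
Difference in log2(FPKM + 1) for each of the 8 genes (vertical axis), for EpiLC minus ESC in R1, E14 and Otx2-/- cells and for dox minus no dox in tetON ESC; black bars are the fit over R1 and E14 with its SE, and for Nkd1 the fit without a filter on low values. Notum and Cdx1 are lower in all 4 comparisons, whereas Tcf7 and Wnt8a, at 1.31 and 3.31 on conversion, are at -0.08 and -0.09 with dox.

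The Otx2-/- line showed a conversion response in the same direction as R1 and E14 for each of the 8 genes. Within that pair of libraries, which has no replicates, log2 ratios were -4.04 for Notum, -3.47 for Cdx1, -1.12 for Axin2, -0.99 for Sp5, 0.65 for Nkd1, 1.19 for Tcf7, 2.03 for Lef1 and 4.71 for Wnt8a. By a rule of size (a log2 ratio of at least 1 either way and 5 FPKM in 1 of the pair), Tcf7, Lef1 and Wnt8a were higher and Axin2, Notum and Cdx1 lower, so 6 genes of the 6 that reached 5 FPKM, where 15.5% of all genes reaching it were past the rule, 6.99% higher and 8.47% lower. In the E14 pair the same rule counted 4 of 6, Tcf7 and Wnt8a higher and Notum and Cdx1 lower, where 16.1% of all genes were, 6.89% higher and 9.24% lower. In both pairs Axin2, Notum and Cdx1 reached 5 FPKM in ESC alone, and Wnt8a in EpiLC alone, as did Lef1 in the Otx2-/- pair. For these genes only the direction towards the higher library could be counted, so the counts are given as a description.

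None of the 7 tested genes differed between Otx2-/- and the lines with intact Otx2 at the adjusted threshold, in a limma fit of 8 libraries which takes the spread of the lone Otx2-/- library to be that of the rest. This fit, which also gave the test of the responses below, had no term for line or activin A. Differences between R1 and E14 therefore count as spread in it. In ESC 0.139% of all genes were called, 17 of 12271 (132 at an unadjusted p under 0.05). The largest differences among the 7 in ESC were -1.01 for Sp5 (SE 1.03) and -0.68 for Lef1 (SE 0.25, limma adjusted p = 1). In EpiLC 0.163% of all genes were called, 20 genes (441 at an unadjusted p under 0.05). There Wnt8a was 1.07 higher on the log2 scale in Otx2-/- (SE 0.76) and Lef1 0.81 higher (SE 0.25, limma adjusted p = 0.96), and Tcf7 was at -0.33 (SE 0.16). Beside these, markers of 2-cell-like cells, a rare state in ESC cultures, summed to 33.4 FPKM in Otx2-/- ESC against 4.13 to 9.40 in R1 and E14 ESC, and to 9.54 in Otx2-/- EpiLC against 1.25 to 3.21, and their part in the values of the 7 genes was not tested.

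For Lef1 the difference in response was the largest of the 7 relative to its error. It was 2.03 in Otx2-/- against 0.38 in R1 and 0.87 in E14, an excess of 1.49 in the test of the responses (SE 0.35), with an unadjusted p of 0.00527 from limma and an adjusted p of 0.997. None of the 7 genes passed that test, which called 0.277% of all genes, 34 in all (194 at an unadjusted p under 0.05). The 2 Otx2-/- comparisons and the test of the responses share libraries and are not separate evidence.

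Between the lines with intact Otx2, the E14 and R1 responses of the 7 genes did not differ at the adjusted threshold either. E14 had 1 library per state, so the spread in this test came from the R1 libraries alone. The R1 EpiLC libraries also differ in activin A. That test called 0.327% of all genes, 40 in all (380 at an unadjusted p under 0.05). Wnt8a had the largest difference, 4.57 in E14 against 2.68 in R1, or 1.89 (SE 0.79, limma adjusted p = 0.914). For Axin2 the responses were -0.54 and -1.88, a difference of 1.34 (SE 1.14, limma adjusted p = 0.914).

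Induction of Otx2 in ESC medium, where the GSK3 inhibitor stays, was followed in the tetON pair, with 1 library each and therefore no test. Notum went from 18.6 to 1.18 FPKM with dox, a log2 ratio of -3.17, and Cdx1 from 11.1 to 2.66, a ratio of -1.72. These 2 were the only ones of the 4 genes reaching 5 FPKM to pass the rule of size, where 12.1% of all genes passed it and 5.71% in that direction. Both reached 5 FPKM without dox alone, so for them only a lower value with dox could be counted. Axin2 went the other way, from 8.46 to 14.6 FPKM (0.72), and Tcf7 was at 17.7 and 16.7 (-0.08). Under 5 FPKM, Lef1 went from 3.16 to 1.29 (-0.86) and Nkd1 from 0.504 to 1.34 (0.64), whereas Sp5 (-0.05) and Wnt8a (-0.09) were nearly level. The summed level of 6 naive markers was 1346 FPKM without and 536 with dox in the same libraries, and that of 6 EpiLC markers 113 and 1278, of which 1059 was Otx2 itself. Neural markers summed to 57.6 and 16.6 FPKM, with Tubb3 at 46.4 and 2.50 but Nes at 5.12 and 12.9. Primitive streak markers summed to 7.71 and 11.2, with Gsc at 3.72 and 8.18 but Eomes at 2.86 and 1.48. Primitive endoderm markers summed to 2.70 and 6.44, trophoblast markers to 19.6 and 16.9, and fibroblast markers to 2.88 and 1.89. Of markers of 2-cell-like cells, the 5 found summed to 41.2 and 79.3, all of it from 3 Zscan4 genes, since Tcstv1 and Tcstv3 were listed at 0. The part of these shifts in the values of the 8 genes was not tested.

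Without dox, the tetON cells were close to the Otx2-/- ESC library for the 8 genes. None of the 4 genes reaching 5 FPKM passed the rule of size, where 2.7% of all genes did, and the widest log2 ratio was -0.50, for Notum. Activin A in R1 EpiLC moved none of the 3 genes reaching 5 FPKM past the rule, where 2.14% of all genes passed, and the ratios of the 8 genes ran from -0.21 for Sp5 to 0.33 for Wnt8a.

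The R1 ESC replicates differed in these genes by as much as some conditions did. Replicate 2 was below replicate 1 by 3.03 on the log2 scale in Sp5 (0.976 against 15.1 FPKM) and by 1.83 in Axin2 (5.89 against 23.5), the 2 of 6 genes past the rule of size, where 11.5% of all genes passed it and 6.09% in that direction. Notum (-0.85) and Cdx1 (-0.74) were lower to a lesser degree, and Lef1 (-0.24) and Tcf7 (-0.09) were close to the median of all genes, which was itself -0.22. Replicate 1 had the highest value of the 6 ESC-medium libraries for each of the 8 genes other than Nkd1, for which it had the lowest, and it stood 4.80 times above the next library in Sp5 and 4.74 times in Wnt8a. In the same library the 8 primitive streak markers summed to 15.0 FPKM against 5.19 to 11.2 in the other 5. In replicate 1, 3 of 8 were at 1 FPKM or more (Eomes 9.31, T 2.61, Evx1 1.70), and Mesp1 was listed at 0. Gsc, also of the 8, went the other way, at 0.659 FPKM against 1.80 to 8.18 in the other 5. The part of such cells in the Sp5, Axin2 and Wnt8a values was not tested. Of 9 other reported Wnt targets reaching 5 FPKM, 5 were past the rule, all 5 lower in replicate 2. They were Myc (-3.17), Fst (-2.35), Gbx2 (-1.73), Ccnd1 (-1.42) and Enc1 (-1.10), named after their values were seen. Sp5, Myc and Fst reached 5 FPKM in replicate 1 alone of the pair, so for them only a lower value in replicate 2 could be counted.

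**Figure D3:**
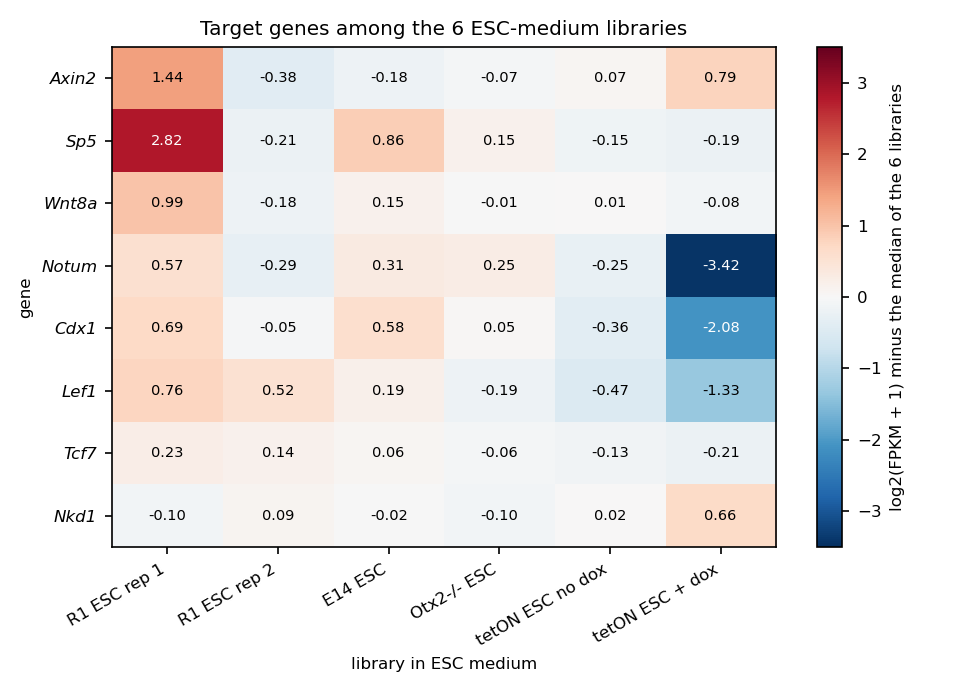
Log2(FPKM + 1) of each of the 8 genes minus its median over the 6 ESC-medium libraries, by library (horizontal axis) and gene (vertical axis), with red above and blue below the median. R1 ESC replicate 1 stands high in Sp5 (2.82), Axin2 (1.44) and Wnt8a (0.99), and the library with dox stands low in Notum (-3.42), Cdx1 (-2.08) and Lef1 (-1.33).

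The rest of the pathway was read from 10 lists of 128 genes, all found in the tables, of which 87 could be tested between EpiLC and ESC. In all 8 rose and 18 fell, 5 of the latter being naive factors, with a median log2 fold change of -0.19 against -0.09 over all genes. Over all genes tested 9.73% rose and 10.6% fell, and the naive factors also define the ESC state. No gene of the 87 passed in the Otx2-/- comparisons or in the tests of the responses.

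Among ligands and the genes that secrete them, 3 of 20 were high enough to test and none passed. Of 14 receptor genes tested, Fzd2 (1.89) and Fzd7 (1.06, named after its value was seen) rose, and Fzd5 (-2.49), Fzd10 (-2.43) and the alternative receptor Ror2 (-1.12) fell. Fzd5 went from 35.9 ± 6.56 to 5.50 ± 0.252 FPKM (SD, n = 3 and 3), Fzd2 from 2.82 ± 1.08 to 13.0 ± 2.64. Lgr4, a receptor for R-spondins, which enhance Wnt signals, was the 1 of 3 genes tested on that axis to rise (1.46). Of 9 secreted or cell-surface inhibitors, Sfrp2 rose (1.81), and Sfrp1 (-2.10) and Apcdd1 (-0.72) fell. Receptors and these inhibitors thus moved in both directions.

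Inside the cell, the level of beta-catenin RNA did not pass the test. Ctnnb1, which encodes beta-catenin, was at 280 ± 18.0 FPKM in ESC and 266 ± 27.9 in EpiLC (SD, n = 3 and 3), a difference of -0.08 (SE 0.13, limma adjusted p = 0.703). Of 10 genes of the destruction complex only Amer1, a membrane-bound partner of Apc listed as Fam123b, passed (0.63), while Gsk3b (-0.45), Apc (-0.44) and Axin1 (-0.23) did not. Among 11 transducers, Nkd2, the paralogue of Nkd1, rose (1.09) and Dact2 (-1.12), Dvl3 (-1.06) and Cxxc5 (-0.74) fell. None of 5 cadherin and catenin genes passed.

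Of 12 nuclear factors, Hbp1, an HMG-box repressor, rose (0.94), and the Groucho-family genes Aes (-1.67) and Tle3 (-0.95) and Tcf7l1 (-0.88) fell. Tcf7l1, the repressor of the family, went from 51.8 ± 11.3 to 27.8 ± 6.19 FPKM (SD, n = 3 and 3, limma adjusted p = 0.0237), so that Tcf7 was below Tcf7l1 in the 6 ESC-medium libraries and above it in the 4 EpiLC libraries. Tcf7l2 was at 3.56 ± 1.39 and 1.64 ± 0.142 FPKM and did not pass (-0.75, limma adjusted p = 0.0828). Chd8 was listed at 0 in R1 ESC replicate 1 and at 27.1 to 34.4 FPKM elsewhere, so its difference has no use. Among 15 other reported targets, the homeobox gene Msx2 (-1.43) and Tnfrsf19 (-0.70), a receptor of the TNF family, fell. Of the 5 naive factors known to be held down by Tcf7l1, all fell, Tfcp2l1 (-4.39), Esrrb (-3.55), Nr0b1 (-2.74), Klf2 (-2.44) and the entry for Nanog (-2.01, which shares its row with a pseudogene).

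**Figure D4:**
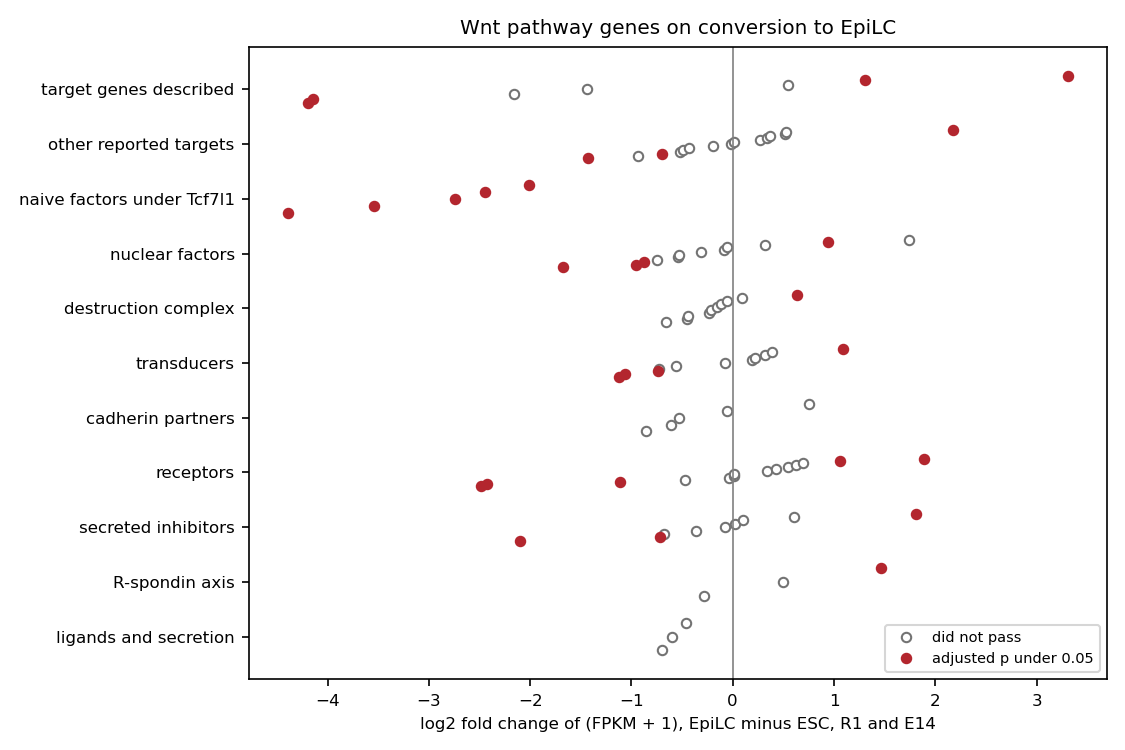
Log2 fold change of (FPKM + 1), EpiLC minus ESC over R1 and E14 (horizontal axis), for each tested gene of the pathway by list (vertical axis), filled where the limma adjusted p was under 0.05. The 5 naive factors lie between -4.39 and -2.01. Receptors lie on both sides of 0, as do the genes labelled secreted inhibitors, which include cell-surface ones. The open nuclear factor at 1.74 is Chd8, listed at 0 in 1 ESC library.

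In the dox pair, where 12.1% of all genes were past the rule of size and 5.71% were past it and lower, 4 of these 5 naive factors were past it and lower, Nr0b1 (-3.31), Esrrb (-2.10), Nanog (-1.59) and Klf2 (-1.08), while Tfcp2l1 was at 126 FPKM without and 148 with dox. Of 8 receptors reaching 5 FPKM, Fzd5 (-1.70) and Fzd10 (-1.63) were lower with dox and Fzd2 was higher (1.29), the same directions as on conversion. Fzd7 and Lgr4, which rose on conversion, were at log2 ratios of -0.92 and -0.63 with dox, the opposite direction, without passing the rule. Of the other list genes past it, Sfrp1 (-1.23), Aes (-1.14), Myc (-1.58), Gbx2 (-1.35) and Mycn (-1.05) were lower. Dkk3, a secreted protein of the Dickkopf family (1.91), Wls, which carries Wnt proteins to the cell surface (1.27), Cdh2 (1.17) and Ascl2 (1.05) were higher, all named after their values were seen. Fzd10, Myc and Gbx2 reached 5 FPKM without dox alone, and Fzd2, Dkk3, Wls, Cdh2 and Ascl2 with dox alone. Each of these could be counted in its own direction only. No gene of the destruction complex (10 reaching 5 FPKM) or of the transducers (9) was past the rule.

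Genes with the most similar profile over the 10 libraries were found by Pearson's r of log2(FPKM + 1), among 8593 genes averaging 5 FPKM or more with no value of 0. The 10 values share 2 states and the same libraries, so r is given as a description. For Notum the closest were Zfp59 (0.997), Ntn1 (0.996) and Fzd5 (0.995), and for Cdx1 Epha4 (0.993), Tfeb (0.991) and Fzd5 (0.991), so that the receptor gene Fzd5 stood among the first 3 for both. Notum and Cdx1 had an r of 0.98 with each other. For Tcf7 they were Rfx5 (0.993), Spry1 (0.992) and 4833442J19Rik (0.989), and for Wnt8a Crybg3 (0.985), Eif1ax (0.981) and Cmtm4 (0.977). For Axin2 they were Cwc25 (0.988), Acd (0.978) and Vac14 (0.976), and for Sp5 1700123O20Rik (0.979), Vps26a (0.974) and Cdc23 (0.974), and for both genes R1 ESC replicate 1 was the highest of the 10 values. Lef1 had the loosest matches, Mapk8 (0.959), Mbtd1 (0.949) and Ccdc136 (0.947).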

How the data were processed

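Polyadenylated RNA was sequenced from 10 libraries. The authors deposited FPKM for each gene, from TopHat and Cufflinks on mm9, per the submitters' processing notes. The version of each tool, the annotation and the parameters were not given in the sources used here. FPKM are relative to the mapped fragments of a library, so a few abundant genes can shift all others, and FPKM carry no counts, so no count model was used. Strand was not marked in the protocol described, so reads cannot be assigned between overlapping genes.

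Each table held 23112 entries. Exact repeats (17) were dropped and 228 further entries of a repeated symbol summed, leaving 22867 symbols. Deposited starts count from 0 and are given here plus 1: end minus start equals a RefSeq gene length for 7190 of 20354 genes, against 462 after adding 1.

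Differences were tested with limma 3.58.1 under R 4.3.3 on log2(FPKM + 1), by two-sided moderated tests (eBayes, trend in mean and variance). Genes averaging under 1 FPKM over the libraries fitted were left out, and p-values were adjusted by Benjamini-Hochberg over all genes tested. Fold changes on this scale understate those of low genes. The fits were also run on simulated data with independent noise, which lacks the line, activin A and outlying-library differences of these data. They were checked there for the sign and size of added changes only. Pairs of single libraries were compared by a log2 ratio of at least 1 in size with 5 FPKM in 1 of the pair. Alternatives were a pseudocount of 0.1, no filter or 5 FPKM (10 for pairs), median-ratio and quantile scaling, no trend, no line covariate, the Otx2-/- pair added, states fitted alone, and each library left out.

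Depth was approximated as 1 fragment per kb from the 25th percentile of values above 0 among 1110 olfactory receptor entries. An exact 0 can be a failed estimate.

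The 8 genes and the pathway lists were chosen with earlier results of these data known. From each list, up to 4 genes passing the EpiLC test were named by size of change, together with Ctnnb1, Gsk3b, Axin1, Apc, Tcf7l1 and Tcf7l2, and for each of the 8 genes averaging 1 FPKM or more the 3 genes most like it by Pearson's r. One gene named by this rule is not reported here.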

Additional observations from a re-analysis of the deposited data

Results flagged for a closer look

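In the 6 libraries in ESC medium and the 4 EpiLC libraries, the highest or lowest value of each of the 8 genes was set against Dixon's critical value, 16 groups in all. Chance flags about 1 in 20 where the libraries are alike and the groups independent. Here the libraries differ in line or treatment, and genes were correlated in ESC medium (Notum and Nkd1 -0.99, Sp5 and Wnt8a 0.98, Pearson's r), so that rate is only a guide. The 4 groups below passed the critical value, and all 4 are in ESC medium. R1 ESC replicate 1 was far above the other 5 libraries in Sp5 (15.1 FPKM) and in Wnt8a (1.25 FPKM). The tetON library with dox was far below the other 5 in Notum (1.18 FPKM) and far above them in Nkd1 (1.34 FPKM).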

How the results depend on the processing

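In the EpiLC against ESC test, 89 values of single genes kept their direction and their side of the threshold, 5 passed only under an alternative (Axin2, Sp5 and Lef1, above) and 2 were lost (Wnt8a). The 2484 genes called numbered 1644 with a filter of 5 FPKM and 3870 with the Otx2-/- pair added. With 1 library left out they ran from 398 to 4118: without R1 EpiLC lacking activin A 398, without that having it 598, without E14 EpiLC 773, without E14 ESC 844 and without R1 ESC replicate 1 4118. Calls among the 8 genes then ran from 3 to 6. For Otx2-/- in ESC the 17 calls numbered 34 with no filter, 5 with 5 FPKM and 37 with ESC libraries alone, and 20 to 26 with 1 library left out, 26 without E14 EpiLC. In EpiLC the 20 calls numbered 59 with no filter and 21 to 42 with 1 library left out, 42 without E14 EpiLC. The 34 calls for the Otx2-/- response numbered 55 with no filter and 11 with 5 FPKM. The 40 for E14 against R1 numbered 17 with a pseudocount of 0.1 and 13 with 5 FPKM, and ran from 0 without either R1 EpiLC library to 80 and 127 without R1 ESC replicates 1 and 2; without either E14 library this test could not be made. The causes were not tested. Signs turned only for differences that had not passed. Without R1 ESC replicate 1 these were, for Otx2-/- in ESC, Axin2 (0.21, with -0.70 as the other end of its range with 1 library left out) and Wnt8a (0.0088, other end -0.58), for the Otx2-/- response Axin2 (-0.26, other end 0.66) and Notum (-0.035, other end 0.39), and for E14 against R1 Tcf7 (-0.033). Without replicate 2 they were Notum for Otx2-/- in ESC (-0.19, other end 0.24), and for E14 against R1 Notum (0.19, other end -0.66) and Cdx1 (0.14, other end -0.61). For Otx2-/- in EpiLC Axin2 turned with quantile scaling (0.0011) and without E14 EpiLC (0.16, other end -0.16). For E14 against R1, Tcf7 turned with median-ratio (-0.057) and quantile scaling (-0.13) and without R1 EpiLC lacking activin A (-0.046, other end 0.071), Notum with quantile scaling (0.015) and Sp5 with a pseudocount of 0.1 (-0.19). Between the R1 ESC replicates, 496 genes were higher and 557 lower in replicate 2 as deposited, 633 and 346 after median-ratio scaling and 580 and 360 after quantile scaling. No paired analysis was possible because only the R1 ESC libraries carry replicate numbers; this concerns pairing by number, and the line, R1 or E14, was a term of the EpiLC test. Depth limits Nkd1, Wnt8a in ESC, and Sp5, Cdx1 and Notum in EpiLC, which are near or under 1 FPKM.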
